A study of Triticum aestivum and Zea mays with 29 samples.

Results

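Cytosine base editors built on LbCas12a were compared by editor architecture in wheat protoplasts, separately within each of 2 ways of delivering the crRNA. The members are the 6 editor arms of the wheat C-to-T table, taken from the plasmid key in that table: 3 editor proteins, each with crRNA system a and with crRNA system h, in 3 replicates. These are 18 of the 21 replicate columns, the other 3 being a control without a base editor, and they come from 3 of the 29 sequenced samples of the series. The table lists C-to-T conversion, as percent of aligned amplicon reads, at 10 cytosines of 4 targets. Arms were compared only with arms of the same crRNA system. No contrast of system h with system a was made.

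A Cas12a cytosine base editor is a fusion protein. A crRNA brings LbCas12a to a target that lies next to a TTTV motif, the PAM. LbCas12a opens the DNA helix there, and a deaminase fused to it turns cytosine on the displaced strand into uracil, which is read as T. The deaminase here was A3A, human APOBEC3A, which is known to prefer a cytosine that follows a T. UGI, an inhibitor of uracil DNA glycosylase, keeps the uracil from being removed by repair. The nuclease activity of LbCas12a is abolished by the D832A substitution, carried by all 3 editors.

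All 3 editors were expressed from the ZmUBI promoter with A3A carrying an intron, LbCas12a (TaLbCas12a in the key), UGI and a GFP released through P2A. The v3-type editor (CBE1 with system a, CBE4 with system h) had LbCas12a(D832A). The v11-type editor (CBE2 and CBE5) added a BP nuclear localisation signal before the deaminase and the D156R substitution in LbCas12a, with an XTEN linker between deaminase and nuclease. The v12-type editor (CBE3 and CBE6) was spelled as the v11-type editor except for the linker, 6xGGGGS in place of XTEN, which is the longer of the pair. The v11-type and v3-type editors thus differ by the localisation signal and by D156R together. The key also spells a linker and a G7 terminator only for the v11-type and v12-type plasmids. The effects of these parts cannot be told apart between the v11-type and v3-type editors. System a is a p35S promoter with the crRNA between HH and HDV ribozymes, and system h is a TaU3 promoter with a tRNA and the crRNA between mature direct repeats. In every arm the crRNAs of all 4 targets were delivered together.

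The cells were mesophyll protoplasts, that is leaf cells without walls, from cultivar Fielder leaves 7 or 8 days after germination. They were transfected with PEG and sorted on GFP fluorescence 2 days later. The sort keeps cells that expressed GFP from the editor plasmid, so the values describe GFP-positive cells only. The table gives no read counts, and the read pairs that the study counted per index pair are not used here. The depth behind each value is therefore not given, nor an interval for counting error. The legend of the study calls the 3 replicates independent biological replicates.

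The 4 targets are printed because the listed cytosines differ in their distance from the PAM and in the base before them. Each is the 4-base PAM followed by the 23-base spacer, 5′ to 3′, with the cytosines listed in the table in capitals.
TS13-B: tttcttggaCgCtaataaCaCggtatg
TS60-A: tttctctcctaCaaagCtagagtatca
TS112-A: tttaaagataaatatgagtCagaccgt
TS121-D: tttgtctccCtaatattgCtCgtcttt

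Positions count from 1 at the spacer base next to the PAM, so that C6 is the sixth spacer base. TS13-B belongs to TraesCS3B02G554300 on chromosome 3B, TS60-A to TraesCS5A02G371500 and TS112-A to TraesCS5A02G401700 on chromosome 5A, and TS121-D to TraesCS4D02G182700 on chromosome 4D, the chromosomes being those in the gene identifiers. Start, end and exon of these sites were not determined here. The 4 spacers hold 20 cytosines, of which the table lists 10: C6, C8, C15 and C17 of TS13-B, C8 and C13 of TS60-A, C16 of TS112-A, and C6, C15 and C17 of TS121-D. A T precedes the cytosine only at C16 of TS112-A and C17 of TS121-D. An A precedes C6, C15 and C17 of TS13-B and C8 of TS60-A, a G precedes C8 of TS13-B, C13 of TS60-A and C15 of TS121-D, and a C precedes C6 of TS121-D.

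The control set the floor for these measurements. Of its 30 values 9 were above 0, and the highest was 0.58%, in replicate 3 at both C8 and C13 of TS60-A. C17 of TS13-B was the only cytosine with a control value above 0 in every replicate, at 0.34, 0.31 and 0.45%. In the editor arms 31 of 180 values were listed at 0. No value in the table lay between 0 and 0.21%, so a value listed at 0 may be a small one.

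**Figure D1:**
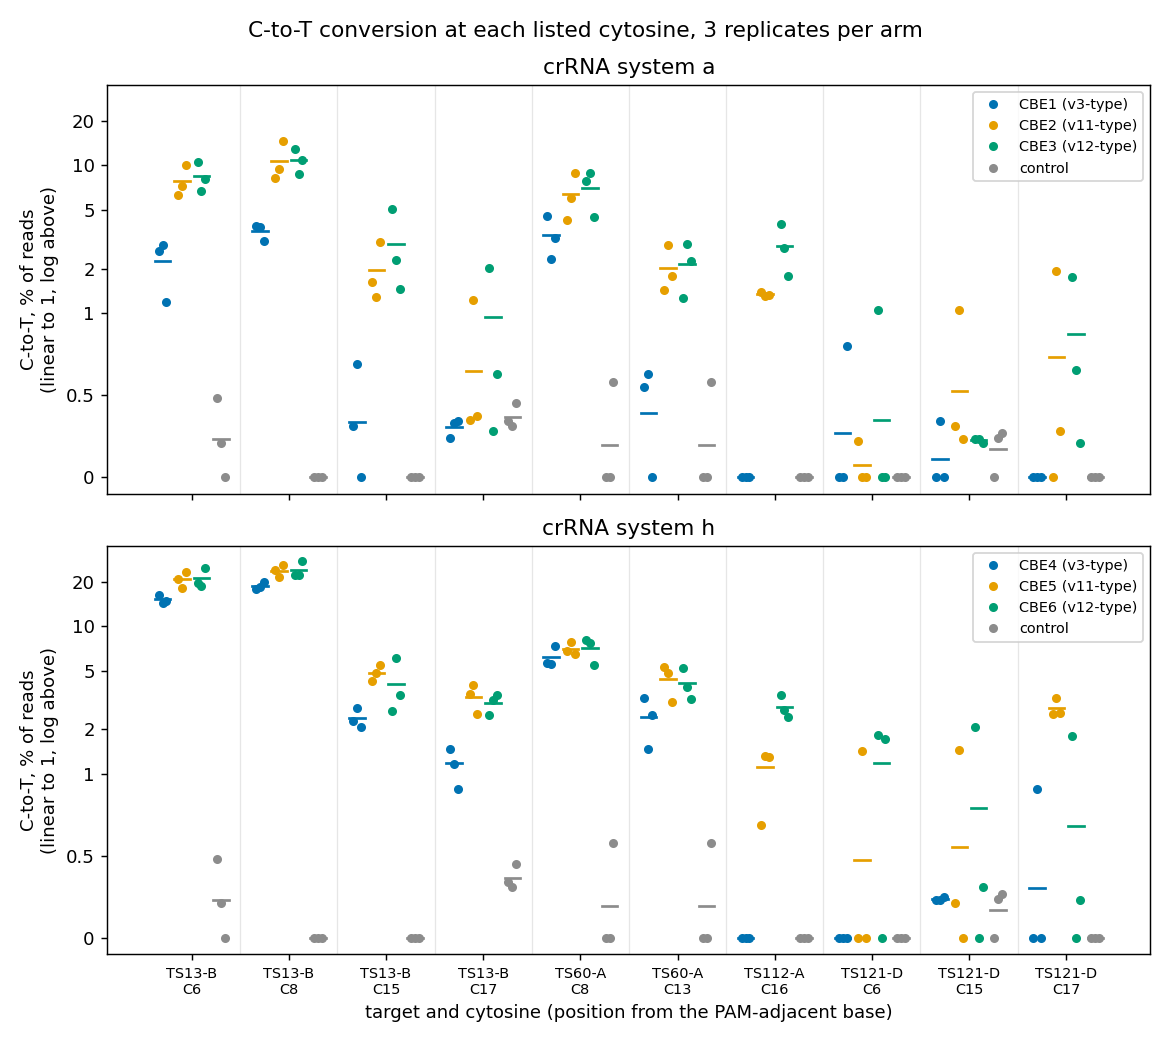
C-to-T conversion in percent of reads (vertical axis, linear up to 1 and logarithmic above) at the 10 listed cytosines (horizontal axis) in crRNA system a and crRNA system h. Points are the 3 replicates of an arm, short lines their means, and the same control is drawn in both panels. At C16 of TS112-A the v3-type arms lie at 0, the v11-type arms between 0.69 and 1.39% and the v12-type arms between 1.77 and 4.03%.

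The v11-type editor edited more than the v3-type editor in both crRNA systems, by 1.91 percentage points with system a and by 1.87 with system h. The editing level used here is the mean over the listed cytosines of a target, then over the 4 targets, for each replicate. With system a, CBE1 (v3-type) had levels of 1.07, 0.880 and 0.759% in replicates 1 to 3, and CBE2 (v11-type) 2.13, 2.88 and 3.44%. With system h, CBE4 (v3-type) had 3.49, 3.26 and 3.61%, and CBE5 (v11-type) 5.20, 5.45 and 5.32%. The replicates of the v11-type arm lay above all those of the v3-type arm within each system. The control levels were 0.0513, 0.0525 and 0.196%. Averaged over the systems the difference was 1.89 points (95% interval 1.45 to 2.31, exact two-sided permutation within systems, p = 0.005, the smallest that its 400 arrangements can give). In ratio, the v11-type mean was 3.12 times the v3-type mean with system a and 1.54 times with system h. Whether these effects differ between the systems was not tested.

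The longer linker brought no level difference past the threshold. CBE3 (v12-type, system a) had levels of 4.29, 3.37 and 2.63%, which overlapped those of CBE2, and CBE6 (v12-type, system h) had 5.92, 5.25 and 5.57%, which overlapped those of CBE5. The v12-type arm was higher by 0.612 points with system a (90% interval -0.811 to 2.16) and by 0.258 points with system h (90% interval -0.199 to 0.720). Averaged over the systems the difference was 0.435 points (95% interval -0.22 to 1.21, exact two-sided permutation, p = 0.21). The sign rests on replicate 1: without that replicate in all arms the difference was -0.0674 points, and without replicate 3 it was 0.792 points. A linker effect on the level of up to 1.21 points is within this interval.

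Set against the v3-type arm of their own system, the v12-type arms stood 2.53 points higher with system a (90% interval 1.56 to 3.54) and 2.12 points higher with system h (90% interval 1.64 to 2.66), with no overlap of replicates. Taken over all 3 arms at once, the levels differed with p = 0.025 within system h, and with p = 0.05, on the threshold and not below it, within system a (exact permutation of the Kruskal-Wallis statistic over 1680 arrangements, 3 replicates per arm). The result for system h rests on how the level is built: with only the most edited cytosine of each target, or with every cytosine weighted equally, the exact permutation p was 0.0714.

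**Figure D2:**
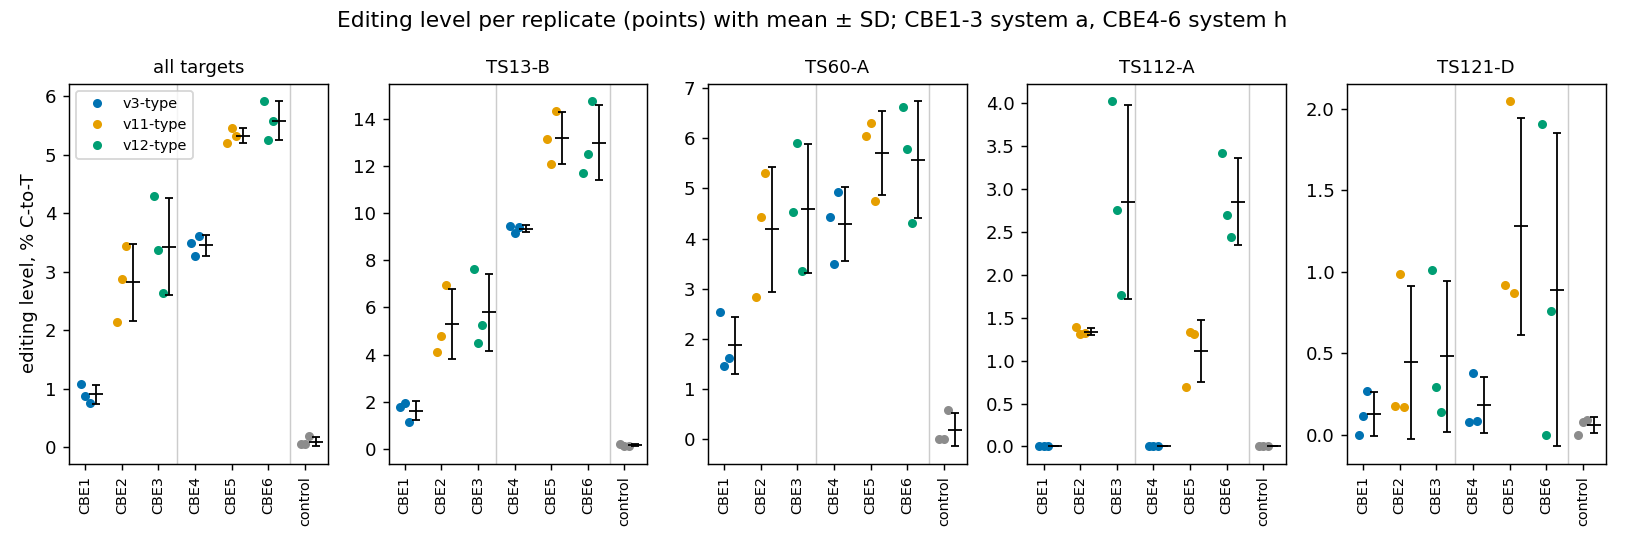
Editing level in percent C-to-T (vertical axes, scaled per panel) over all targets and for each target, by arm (horizontal axis; CBE1 to CBE3 with system a, CBE4 to CBE6 with system h, control last). Points are replicates and bars the mean ± SD of 3 replicates; over all targets the v11-type and v12-type arms lie above the v3-type arm of the same system.

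At TS13-B, the most edited target, the v11-type editor was ahead of the v3-type editor at all 4 cytosines in both systems. The target level was 1.62 ± 0.416% in CBE1 and 5.30 ± 1.49% in CBE2 with system a, and 9.35 ± 0.161% in CBE4 and 13.2 ± 1.12% in CBE5 with system h (mean ± SD, n = 3). The difference averaged over systems was 3.76 points (95% interval 2.62 to 5.06, exact permutation, p = 0.005, adjusted p = 0.0133 over the 8 tests of 4 targets and 2 contrasts). All 3 v11-type replicates lay above the v3-type replicates of their system. The v12-type level was 5.79 ± 1.62% in CBE3 and 13 ± 1.58% in CBE6 (n = 3), and its difference from the v11-type was 0.149 points (95% interval -1.77 to 1.97, exact permutation, adjusted p = 0.825).

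C8 of TS13-B carried the highest conversion of the table. With system a it reached 3.89, 3.84 and 3.07% in CBE1, 8.22, 9.46 and 14.5% in CBE2, and 12.9, 8.76 and 10.8% in CBE3. With system h it reached 17.8, 18.3 and 19.8% in CBE4, 23.9, 21.6 and 25.9% in CBE5, and 22.1, 22.0 and 27.5% in CBE6. The v3-type replicates were the lowest in each system, and the v11-type and v12-type replicates overlapped. The v11-type arm was higher than the v3-type arm by 7.13 points with system a (90% interval 4.33 to 11.4) and by 5.16 points with system h (90% interval 1.75 to 8.15). The v12-type arm differed from the v11-type by 0.0967 points with system a (90% interval -5.75 to 4.70) and by 0.0767 points with system h (90% interval -3.89 to 5.87), so the linker effect at this cytosine is bounded only to several points.

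C6 of TS13-B followed the same order. It was at 2.63, 2.89 and 1.18% in CBE1, 6.31, 7.24 and 9.99% in CBE2, and 10.5, 6.70 and 8.11% in CBE3. With system h it was at 16.3, 14.4 and 14.9% in CBE4, 21, 18.1 and 23.4% in CBE5, and 19.6, 18.8 and 24.8% in CBE6, against 0.48, 0.21 and 0% in the control. The v11-type arm exceeded the v3-type arm by 5.61 points with system a and by 5.62 points with system h. C8 was higher than C6 in all 18 editor replicates, and C6 was higher than C15 in all 18.

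The PAM-distal cytosines C15 and C17 of TS13-B were edited less. C15 was at 0.31, 0.69 and 0% in CBE1, 1.61, 1.28 and 3.02% in CBE2, and 5.05, 2.27 and 1.46% in CBE3. With system h it was at 2.29, 2.81 and 2.06% in CBE4, 4.25, 4.80 and 5.49% in CBE5, and 2.65, 6.07 and 3.44% in CBE6, with the control listed at 0. The v11-type replicates lay above the v3-type replicates in both systems, and the v12-type replicates overlapped the v11-type replicates in both.

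C17 of TS13-B lay above every control replicate in all 3 arms of system h. There it was at 1.47, 1.17 and 0.91% in CBE4, 3.45, 4.00 and 2.56% in CBE5, and 2.51, 3.14 and 3.40% in CBE6. With system a it was at 0.24, 0.33 and 0.34% in CBE1, 0.35, 1.22 and 0.37% in CBE2, and 2.02, 0.28 and 0.63% in CBE3, so that at least 1 replicate of each of these arms lay within the control range of 0.31 to 0.45% or below it. CBE2 and CBE1 did not overlap at this cytosine, but their nearest replicates were 0.01 points apart.

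At TS60-A the v11-type editor was again higher than the v3-type editor. With system a the replicates of these editors were separate at C13 and overlapped at C8, and with system h they overlapped at both cytosines. The target level was 1.87 ± 0.574% in CBE1, 4.19 ± 1.24% in CBE2 and 4.60 ± 1.28% in CBE3, and with system h 4.29 ± 0.731% in CBE4, 5.71 ± 0.831% in CBE5 and 5.58 ± 1.17% in CBE6 (mean ± SD, n = 3). The v11-type minus v3-type difference was 1.86 points (95% interval 0.67 to 3.06, exact permutation, p = 0.01, adjusted p = 0.02), with replicates separate in system a and overlapping in system h. The v12-type minus v11-type difference was 0.14 points (95% interval -1.39 to 1.68, exact permutation, adjusted p = 0.825). With the most edited cytosine, C8, in place of the target mean the v11-type minus v3-type call was lost (exact permutation, adjusted p = 0.056).

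C8 of TS60-A showed overlapping arms in both systems. It was at 4.51, 2.31 and 3.24% in CBE1, 4.26, 5.98 and 8.81% in CBE2, and 7.79, 8.92 and 4.47% in CBE3. With system h it was at 5.63, 5.52 and 7.39% in CBE4, 6.79, 7.84 and 6.45% in CBE5, and 8.04, 7.73 and 5.42% in CBE6. At C13 the values were 0.55, 0.63 and 0% in CBE1, 1.43, 2.87 and 1.79% in CBE2, and 1.26, 2.91 and 2.25% in CBE3, and here CBE1 lay below both other arms. With system h, C13 was at 3.25, 1.48 and 2.49% in CBE4, 5.30, 4.79 and 3.07% in CBE5, and 5.21, 3.85 and 3.21% in CBE6, with overlap between all pairs of arms. C8 exceeded C13 in all 18 editor replicates.

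TS112-A was the target at which the v12-type and v11-type editors, which differ in the linker, differed past the threshold. Its listed cytosine, C16, is preceded by T. The v3-type editor was listed at 0 in all 3 replicates with system a and all 3 with system h, as was the control. The v11-type editor was at 1.39, 1.31 and 1.32% in CBE2 and at 0.69, 1.33 and 1.31% in CBE5. The v12-type editor was at 4.03, 2.76 and 1.77% in CBE3 and at 3.42, 2.70 and 2.44% in CBE6.

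The 3 architectures did not overlap at C16 in either system, and they stood in the same order in both. The v12-type mean of 2.85% was 2.13 times the v11-type mean of 1.34% with system a, and 2.57 times the v11-type mean of 1.11% with system h. The v12-type minus v11-type difference was 1.63 points averaged over systems (95% interval 0.798 to 2.41, exact permutation, p = 0.005, adjusted p = 0.0133). The v11-type minus v3-type difference was 1.23 points (95% interval 1.00 to 1.36, exact permutation, p = 0.005, adjusted p = 0.0133). That interval takes the v3-type values listed at 0 as exact. With them set to 0.2%, chosen after seeing the data, the difference was 1.025 points (exact permutation, adjusted p = 0.0133). With the replicate number, taken as the sequencing library, as a block, neither call at TS112-A passed (exact permutation, adjusted p = 0.0833 for each), nor did any of the calls at the other targets. No ratio to the v3-type editor is given, since that editor was listed at 0. Whether the linker effect at TS112-A differs from that at the other targets was not tested.

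TS121-D was the least edited target, with 23 of 54 editor values listed at 0. Its level was 0.127 ± 0.134% in CBE1, 0.443 ± 0.468% in CBE2 and 0.480 ± 0.463% in CBE3, and with system h 0.180 ± 0.173% in CBE4, 1.28 ± 0.666% in CBE5 and 0.888 ± 0.960% in CBE6 (mean ± SD, n = 3), against 0.0567 ± 0.0493% in the control. The v11-type minus v3-type difference was 0.707 points (95% interval 0.172 to 1.37, exact permutation, p = 0.02, adjusted p = 0.032), and replicates were separate only with system h. Without replicate 2 in all arms it was 0.427 points. With values listed at 0 set to 0.2%, which was chosen after seeing the data, the adjusted p was 0.056 (exact permutation). The v12-type minus v11-type difference was -0.177 points (95% interval -1.04 to 0.663, exact permutation, adjusted p = 0.78).

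Most of this came from C17 of TS121-D, the other listed cytosine after a T. With system h it was at 0, 0.91 and 0% in CBE4, at 2.55, 3.26 and 2.60% in CBE5, and at 1.81, 0 and 0.23% in CBE6. The v12-type arm lay below the v11-type arm here without overlap, with a difference of -2.12 points (90% interval -3.26 to -0.74), which is the opposite order to C16 of TS112-A. Whether the linker difference varies between these cytosines was not tested. At C17 of TS121-D the 3 arms of system h did not differ past the threshold (exact permutation of the Kruskal-Wallis statistic, adjusted p = 0.143). With system a the same cytosine was at 0 in all replicates of CBE1, and at 0, 1.91 and 0.28% in CBE2. In CBE3 it was at 1.75, 0.65 and 0.21%. There the v11-type and v12-type replicates overlapped, with the v12-type mean 0.14 points higher.

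The other cytosines of TS121-D gave scattered values. C6 was above 0 in 1 replicate of each arm of system a (0.80% in CBE1, 0.22% in CBE2, 1.04% in CBE3), in no replicate of CBE4, in 1 of CBE5 (1.42%) and in 2 of CBE6 (1.84 and 1.73%). C15 was at 0, 0.34 and 0% in CBE1, 0.31, 1.04 and 0.23% in CBE2, and 0.23, 0.23 and 0.21% in CBE3. With system h, C15 was at 0.23, 0.23 and 0.25% in CBE4, 0.21, 1.46 and 0% in CBE5, and 2.07, 0 and 0.31% in CBE6. Neither cytosine separated the arms of a system from each other or from the control, in which C15 reached 0.27%.

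**Figure D3:**
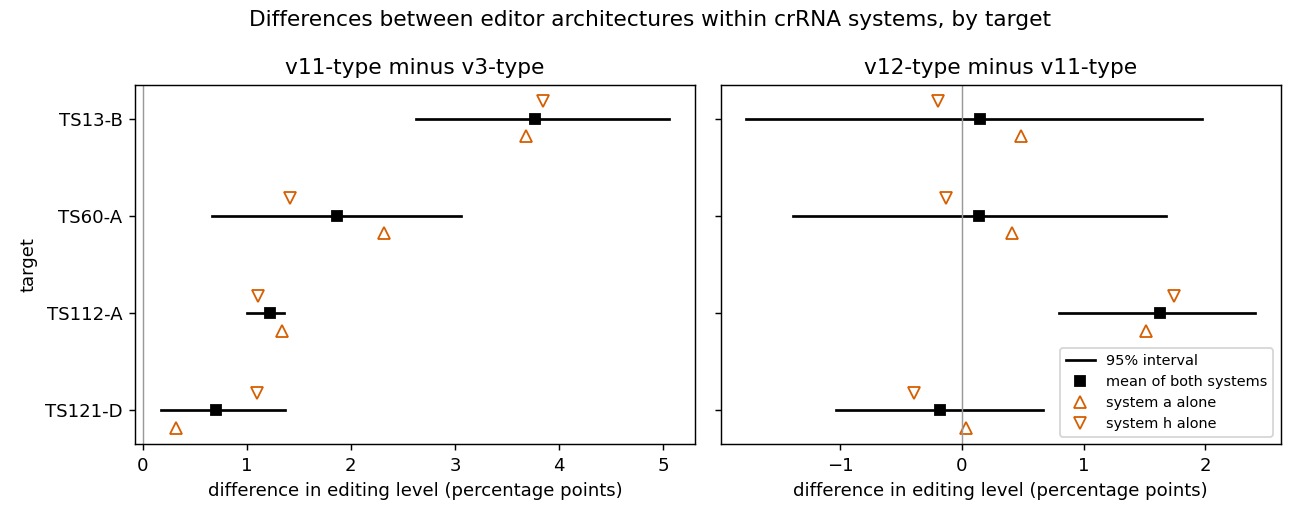
Differences in editing level in percentage points (horizontal axes) for the 4 targets, v11-type minus v3-type and v12-type minus v11-type. Squares are the mean of the within-system differences with their 95% interval, and triangles the difference in each system alone; the v12-type minus v11-type interval excludes 0 at TS112-A (0.798 to 2.41) and at no other target.

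Counted over cytosines, v11-type replicates lay above all v3-type replicates of their system at 6 of 10 cytosines with system a (60.0% of those listed) and at 6 of 10 with system h (60.0%), and below them at 0. In both systems these included the 4 cytosines of TS13-B and C16 of TS112-A, 5 in all, with C13 of TS60-A as the sixth in system a and C17 of TS121-D in system h. At C17 of TS13-B with system a, neither arm lay above every control replicate in all its replicates. The v12-type replicates lay above all v11-type replicates at 1 of 10 cytosines in each system (10.0%), C16 of TS112-A both times. They lay below at 0 of 10 with system a and at 1 of 10 (10.0%), C17 of TS121-D, with system h. The 10 cytosines are all that the table lists, so these shares have no outside background. Cytosines of 1 target are read from the same amplicons and are not independent.

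Tested singly, C16 of TS112-A passed the threshold in both systems (exact permutation of the Kruskal-Wallis statistic, p = 0.00357, adjusted p = 0.0357 over 20 tests of 10 cytosines in 2 systems). That is 1 of 10 cytosines (10.0%) in each system. The other 18 tests did not pass, the lowest adjusted p among them being 0.143 by the same exact permutation test. The smallest p, 0.00357, needs all 3 arms to separate fully. In 1 test alone even that p would not pass the adjustment over 20. At C6 and C8 of TS13-B the v3-type replicates lay below both other arms in each system, but those 2 arms overlapped. A test that did not pass therefore does not show that the arms are alike. Without adjustment 1 cytosine passed with system a and 3 with system h. With the replicate number as a block 0 of the 20 tests passed after adjustment and 2 without it (exact permutation). The smallest exact permutation p under the block is 0.0278, which passes the adjustment only if most of the 20 tests reach it.

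The number of cytosines edited above every control replicate, in every replicate of an arm, was lowest for the v3-type editor. With system a it was 3 of 10 in CBE1, 6 in CBE2 and 7 in CBE3, and with system h it was 6 in CBE4, 8 in CBE5 and 7 in CBE6. In CBE1 these were C6 and C8 of TS13-B and C8 of TS60-A. CBE2 added C15 of TS13-B, C13 of TS60-A and C16 of TS112-A, and CBE3 added C17 of TS121-D to those. CBE4 lacked C16 of TS112-A and all of TS121-D, CBE5 lacked C6 and C15 of TS121-D, and CBE6 lacked all of TS121-D. These counts carry no test.

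The place of the edits among the listed cytosines of a target was described by a share. The share is the part of the C-to-T summed over those cytosines that lay at C13 or beyond. It was taken at TS13-B and TS60-A, which hold a listed cytosine at C8 and at least 1 at C13 or beyond. TS121-D, with C6, C15 and C17 listed, was left out. Cytosines that are not listed do not enter the share. At TS60-A 2 of the 6 spacer cytosines are listed, so the share there is C13 against C8 and C13 together. At TS13-B the share was 7.78, 13.2 and 7.41% in CBE1, 11.9, 13 and 12.2% in CBE2, and 23.2, 14.2 and 9.95% in CBE3. With system h it was 9.94, 10.9 and 7.88% in CBE4, 14.6, 18.2 and 14.0% in CBE5, and 11, 18.4 and 11.6% in CBE6. CBE5 and CBE6 lay above CBE4 in every replicate, and the arms of system a overlapped. The v11-type minus v3-type difference was 4.48 points of share (95% interval 1.52 to 7.31, exact permutation, p = 0.02, adjusted p = 0.06 over 4 tests). In CBE1 neither C15 nor C17 lay above every control replicate in all replicates, so its share rests on values near 0. C17 did not do so in CBE2 and CBE3 either.

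At TS60-A the share was 10.9, 21.4 and 0% in CBE1, 25.1, 32.4 and 16.9% in CBE2, and 13.9, 24.6 and 33.5% in CBE3. With system h it was 36.6, 21.1 and 25.2% in CBE4, 43.8, 37.9 and 32.2% in CBE5, and 39.3, 33.2 and 37.2% in CBE6. The v3-type arm had the lowest mean in each system, with overlap of replicates. In CBE1 the share rests on C13 values of 0.55, 0.63 and 0%, against up to 0.58% in the control. The v11-type minus v3-type difference was 12.2 points (95% interval 1.33 to 22.7, exact permutation, p = 0.03, adjusted p = 0.06). At both targets this missed the threshold after adjustment. With the control mean subtracted at each cytosine both passed, at 6.73 points for TS13-B (exact permutation, adjusted p = 0.02) and 14.3 points for TS60-A (exact permutation, adjusted p = 0.04). The subtraction put the share of CBE1 replicate 3 below 0 at both targets. In that replicate C15 of TS13-B was listed at 0, as in the control, and C17, at 0.34%, lay below the control mean of 0.367%. At TS60-A, C13 was listed at 0, below the control mean of 0.193%. A share below 0 is not a proportion, so no shift in the place of the edits is read from these passes. For the linker the share differed by 0.732 points at TS13-B (95% interval -4.43 to 6.97) and by -1.12 points at TS60-A (95% interval -9.94 to 7.71), with an adjusted p of 0.825 for each (exact permutation).

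**Figure D4:**
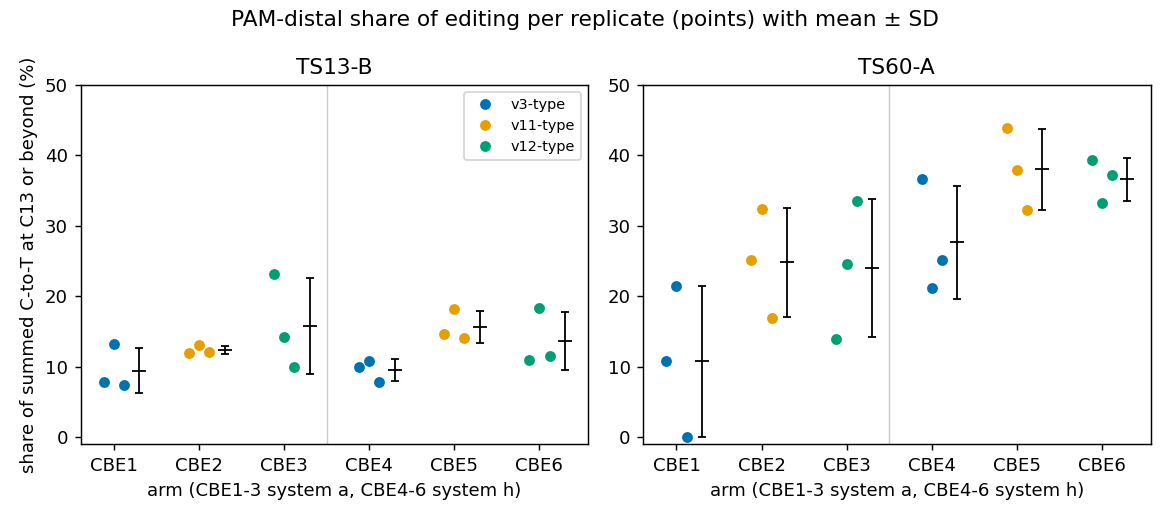
Share of the C-to-T conversion summed over the listed cytosines that lay at C13 or beyond, in percent (vertical axes). It is shown at TS13-B and TS60-A for the 6 editor arms (horizontal axes). Points are replicates and bars the mean ± SD of 3 replicates; in each panel the v3-type arm has the lowest mean of its crRNA system, 9.45 and 9.56% at TS13-B and 10.8 and 27.6% at TS60-A.

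CBE3 had the widest spread of level among the 6 arms. Its replicate 1 was alone the highest of the arm at 7 of 10 cytosines, among them all 4 of TS13-B and C16 of TS112-A, and the SD of its level was 0.834 points, against 0.159 in CBE1 and 0.656 in CBE2. Such a count is not particular to CBE3: replicate 2 of CBE5 and replicate 1 of CBE6 were each alone the highest at 6 of 10. With system h the SDs were 0.179 points in CBE4, 0.126 in CBE5 and 0.334 in CBE6. With 3 replicates per arm, a pair of arms in 1 system can reach an exact permutation p of 0.1 at the lowest, so pairs within a system were given as values with their intervals and tests of a contrast used both systems.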

How the data were processed

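The deposited table holds percent values made by the authors: reads were demultiplexed with Je and analysed with CRISPResso2, and C-to-T conversion is given as percent of aligned reads at each listed cytosine. No value was normalized, filtered or transformed for the main results. Arms follow the plasmid key in the table, and replicate numbers of columns were taken as library numbers. The arms, cytosines and tests were chosen with earlier results of these data known. Every listed on-target cytosine is named.

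A replicate's level is the mean over cytosines of a target, then over targets. Contrasts were averaged over crRNA systems and tested by exact two-sided permutation of arms within systems, with 95% intervals by inverting the test. The 90% intervals of 3 against 3 run from the smallest to the largest difference between replicates, the shifts that 20 arrangements do not reject. Several arms were compared by exact permutation of the Kruskal-Wallis statistic, as the study's legend names that test. A result passed below 0.05, after Benjamini-Hochberg adjustment where families are given. The tests were checked on simulated data with independent normal noise. That check did not model values listed at 0, ties or correlation between same-numbered replicates. Alternatives were the most edited cytosine, equal weights, log2(percent + 0.1), control subtraction, leaving out TS13-B, replicate blocks, pooled points, an F statistic and leaving out replicates; one chosen after seeing the data sets values at 0 to 0.2%. Spacers and PAMs were read from the amplicons in the study's primer and target tables. Homeologous copies of the targets are not analysed here. Python 3.11.15, NumPy 2.4.6, SciPy 1.17.1 and Matplotlib 3.10.9 were used.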

Additional observations from a re-analysis of the deposited data

How the results depend on the processing

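The v11-type minus v3-type level difference passed in all 12 fits that left out 1 replicate of 1 arm (1.73 to 2.06 points) and under every other alternative run except leaving out a replicate number in all arms, which gave 1.74 to 2.14 points with an exact permutation p of 0.0556, the smallest that design allows. The v12-type minus v11-type difference never passed. It ran from -0.0674 to 0.792 points without a replicate number, turning below 0 without replicate 1, and from 0.219 to 0.635 without 1 replicate of 1 arm.

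The Kruskal-Wallis result for system a (exact permutation p = 0.05) passed without TS13-B (p = 0.025) and gave p = 0.00212 with all points pooled, which counts cytosines of 1 replicate as independent, and ran from 0.025 to 0.121 without 1 replicate of 1 arm. That for system h (exact p = 0.025) was 0.0714 with the most edited cytosine, equal weights or log2 values, 0.05 without TS13-B and 0.0713 with pooled points (permutation), and ran from 0.0107 to 0.0929 without 1 replicate of 1 arm. Without a replicate number the exact p ran from 0.0667 to 0.2 in system a and from 0.0667 to 0.333 in system h, where nothing below 0.0667 can be reached. The cause was not tested.

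Counts of targets called, 4 for v11-type minus v3-type and 1 for v12-type minus v11-type, were 0 without any replicate number, since the smallest p is then 0.0556. At TS121-D the v11-type minus v3-type difference then ran from 0.427 to 0.889 points. Without a replicate number the linker difference ran from -0.296 to 0.546 points at TS13-B, from -0.355 to 0.806 at TS60-A and from -0.719 to 0.419 at TS121-D, and that of the PAM-distal share from -0.823 to 2.26 points at TS13-B and from -7.06 to 2.26 at TS60-A, changing sign in each. None of these was past the threshold in the full data. The 0 share contrasts called became 2 with the control subtracted, a step that put the share of CBE1 replicate 3 below 0 at TS13-B and TS60-A.

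Replicate numbers were not treated as pairs: deviations of same-numbered replicates correlated above 0.1 for 3 of 6 pairs of arms. These were all the pairs of system h (0.172 to 0.611), while all pairs of system a were below 0 (-0.555 to -0.0554). With the replicate number as a block the v11-type minus v3-type difference of 1.89 points had an exact permutation p of 0.0313, the smallest possible, and the linker difference of 0.435 points had p = 0.406. Exact permutation within the block gave p = 0.139 in system a and 0.111 in system h, 0 targets called for either contrast (lowest adjusted p 0.0833) and 0 of 20 cytosine tests in place of 2. The block leaves few arrangements, so tests by target and by cytosine could hardly pass after adjustment. The planned tests of homeologous sites were not run, because the table used lists on-target cytosines. Read depth was not used here, which limits all values near 0.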
